A study of Homo sapiens with 6 samples.

Results

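The genes described here are the 7 human APOBEC3 cytidine deaminases, APOBEC3A, APOBEC3B, APOBEC3C, APOBEC3D, APOBEC3F, APOBEC3G and APOBEC3H, together with CDA, the cytidine deaminase of nucleoside salvage. They were taken by gene symbol from the platform annotation, which gave 1 transcript cluster for each of the 8, out of 17687 named genes on the array. RNA came from MDA-MB-231, an established human triple-negative breast cancer line, in 2 stably transfected forms. MDA-MB-231-hOSM carries pUNO1-hOSM, a vector for human oncostatin M (OSM), a cytokine of the IL-6 family, and MDA-MB-231-hC carries the empty pUNO1 vector. Both were made with 2 μg of plasmid and kept under blasticidin at 10 μg/mL, and no added OSM protein is named for these samples. RNA was taken at 3 passages from cultures grown side by side, numbered as sets 1 to 3, and hybridized to Human Clariom S arrays (n = 3 arrays per line). Whether each line is a clone or a pool is not given in the sources used here. Separate transfections are not described, so an effect of OSM and a change acquired while either line was made cannot be told apart. The comparison asks how lasting OSM expression and the level of these deaminase genes go together in the cancer cells.

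APOBEC3 enzymes turn cytosine into uracil in single-stranded DNA. They are known for blocking retroviruses and mobile elements, and several are induced by interferon. In breast and other cancers APOBEC3A and APOBEC3B are studied as sources of C-to-T and C-to-G mutations, since uracil left in the genome is copied as thymine or cut out by the uracil glycosylase UNG. CDA acts on free nucleosides instead of nucleic acids. It converts cytidine and deoxycytidine to uridine and deoxyuridine, and it inactivates the drugs gemcitabine and cytarabine.

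Of the 8 genes, CDA was higher in MDA-MB-231-hOSM and APOBEC3B and APOBEC3G were lower, while the other 5 did not pass the test. A gene was called where it changed more than 2-fold and its p, adjusted by Benjamini-Hochberg over all 21448 transcript clusters, was under 0.1 in limma with the set as a block. These are the limits the study used. By this rule 4.16% of all transcript clusters were called, with 2.60% higher in MDA-MB-231-hOSM and 1.57% lower there, beside 1 higher and 2 lower of these 8 genes. The median log2 fold change was −0.30 over the 8 genes and −0.03 over all transcript clusters. With so few genes, no test of the group was made. The p-values rest on the spread of the differences among the 3 sets, moderated by limma toward that of all transcript clusters, and cover no spread between separately made lines. The 6 arrays bound how precise they can be. In RNA from whole cultures, fewer cells of a type and less RNA per cell cannot be told apart.

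The values are log2 signals with no detection p, and 349 olfactory receptor genes, which cells of this kind are not known to use, served as a guide to background. The 95th percentile of their mean signals was 5.77. The 6 array medians lay between 6.82 and 6.85. Within each set the arrays of both lines departed from their line means in opposite directions by nearly equal amounts (r from −0.995 to −0.992 across transcript clusters, which are not independent). The median SD over the sets was 0.0076 for the mean of a set's arrays, against 0.225 for their difference. The SDs within a line are therefore close to equal and hold almost no spread between set means. The step behind this is not named in the sources used here, and the SDs may leave out spread between passages. OSM itself had a log2 fold change of 9.66 and OSMR, its receptor subunit, of 2.94. Of 9 measured markers of MDA-MB-231, VIM, CD44, EGFR, KRT8 and KRT18, which this line is known to express, had mean signals from 11.61 to 16.36, and ESR1, PGR and CDH1 lay under the guide in both lines. The keratins KRT8 (log2 fold change 1.01) and KRT18 (1.09) were called higher and the epithelial adhesion gene EPCAM (−1.10) lower in MDA-MB-231-hOSM. These calls make up 33.3% of the 9 markers, against 4.16% called over all transcript clusters. EPCAM was not called whichever set was left out, KRT8 not without set 1 or set 3, and KRT18 not without set 2 or set 3. Of 15 measured leukocyte markers 11 lay under the guide in both lines, PTPRC among them, and none was called. CD68 (12.29 in MDA-MB-231-hC and 12.60 in MDA-MB-231-hOSM) and CD79A (6.79 and 7.03) lay over the guide in both lines. CD52 lay over it only in MDA-MB-231-hC and CSF1R only in MDA-MB-231-hOSM. Of 7 fibroblast markers 5 lay under the guide in both lines, and none was called. COL1A2 (8.85 and 8.74) and COL1A1 (6.09 and 5.91) lay over it in both. Without the fold limit, PDGFRB was lower in MDA-MB-231-hOSM (log2 fold change −0.52, adjusted p = 0.0639 in limma). The leukocyte markers MS4A1 (0.39) and CSF1R (0.44) also had an adjusted p under 0.1, with higher means. The summed log2 signals of the leukocyte markers ran from 77.9 to 78.3 in MDA-MB-231-hC and from 78.1 to 78.5 in MDA-MB-231-hOSM. In the same order, those of the fibroblast markers ran from 37.3 to 38.0 and from 38.1 to 38.7. Those of the MDA-MB-231 markers ran from 88.9 to 90.2 and from 91.1 to 92.3. The leukocyte sums overlapped between the lines, while the fibroblast and MDA-MB-231 sums did not and were higher in MDA-MB-231-hOSM.

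CDA had log2 signals of 4.27, 4.01 and 3.80 in sets 1, 2 and 3 of MDA-MB-231-hC, and of 6.39, 6.67 and 6.89 in the same sets of MDA-MB-231-hOSM. The arrays did not overlap, and the gap between the highest MDA-MB-231-hC array and the lowest MDA-MB-231-hOSM array was 2.12 on the log2 scale. Such separation alone says little here, because the arrays of the lines do not overlap for 50.0% of all transcript clusters. The mean signal was 6.65 ± 0.25 against 4.03 ± 0.24 (SD, n = 3 arrays each), a 6.16-fold difference (log2 fold change 2.62 with an SE of 0.20, adjusted p = 0.000927 in limma). The 95% confidence interval ran from 4.44-fold to 8.55-fold. The difference was smallest in set 1 (2.12) and largest in set 3 (3.09), and CDA was called with any set left out. All 3 MDA-MB-231-hC arrays lay under the background guide and all 3 MDA-MB-231-hOSM arrays over it. The fold therefore sets a signal against a background level, and its size is uncertain. Of 369 transcript clusters whose means lay under the guide in MDA-MB-231-hC and over it in MDA-MB-231-hOSM, 101 (27.4%) were called.

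The 250 bases before the start of CDA are shown because CDA had the largest change of the group. The sequence comes from RefSeq on GRCh38.p14, chr1:20588847-20589096, plus strand, read 5′ to 3′, and capitals would mark a motif match. RefSeq promoters were matched for 2 of the 8 genes, CDA and APOBEC3H.
CDA: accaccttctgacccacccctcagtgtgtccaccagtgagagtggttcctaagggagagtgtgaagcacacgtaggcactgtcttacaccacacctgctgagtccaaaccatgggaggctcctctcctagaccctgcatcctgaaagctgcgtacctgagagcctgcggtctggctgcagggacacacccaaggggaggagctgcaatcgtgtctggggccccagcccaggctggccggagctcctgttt
The search covered these bases and the 50 that follow, on both strands. It used TTCNNNGAA for STAT factors, GGNNTTTCC for NF-κB, GAAANNGAA for interferon response factors and TTTGAA or TTTAAA for the cell cycle homology region, and matches of different motifs could overlap. Neither the CDA nor the APOBEC3H promoter held any of them. Among all 35116 RefSeq promoters of the same length, 7.66%, 6.26%, 8.11% and 24.0% held the motifs in that order. The absence of these letters from a short window says nothing about binding of a factor elsewhere.

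APOBEC3B, a nuclear enzyme with a pair of deaminase domains, had the most even difference of the group. Its log2 signals in sets 1, 2 and 3 were 10.08, 10.09 and 10.04 in MDA-MB-231-hC, and 8.95, 9.00 and 9.01 in MDA-MB-231-hOSM. All 6 arrays lay well over the background guide, and the lines were 1.03 apart at their closest. The mean log2 signal fell by 1.08 (with an SE of 0.12, adjusted p = 0.00356 in limma), from 10.07 ± 0.03 to 8.99 ± 0.03 (SD, n = 3 arrays each). This is 2.12-fold lower in MDA-MB-231-hOSM, with a 95% confidence interval from 1.74-fold to 2.58-fold, so a change of under 2-fold is within the error. The differences in the sets were −1.13, −1.09 and −1.03, with an SD of 0.05. The SE is larger than that spread would give because limma moderates each variance toward that of all transcript clusters. APOBEC3B was called with any set left out, at log2 fold changes from −1.11 to −1.06.

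APOBEC3G, known best as the factor that HIV-1 counters with its Vif protein, had log2 signals of 4.70, 5.30 and 5.04 in MDA-MB-231-hC and of 4.29, 3.75 and 3.92 in MDA-MB-231-hOSM. The lines did not overlap, with a gap of 0.41. The mean log2 signal fell by 1.03 (with an SE of 0.22, adjusted p = 0.0338 in limma), or 2.04-fold, with a 95% confidence interval from 1.41-fold to 2.94-fold. The difference was −0.41 in set 1, −1.12 in set 3 and −1.55 in set 2. All 6 arrays lay under the background guide, so this signal may hold little of the transcript. Among the 8236 transcript clusters with means under the guide in both lines, 39 (0.474%) were called, 25 higher and 14 lower. Of the 349 olfactory receptor genes behind the guide 5 were called, all lower in MDA-MB-231-hOSM (1.57% of all transcript clusters were called lower). The call did not hold without set 2 (log2 fold change −0.77, adjusted p = 0.177) or without set 3 (−0.98, adjusted p = 0.223), and over all the alternatives the adjusted p ran from 0.00857 to 0.223.

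**Figure D1:**
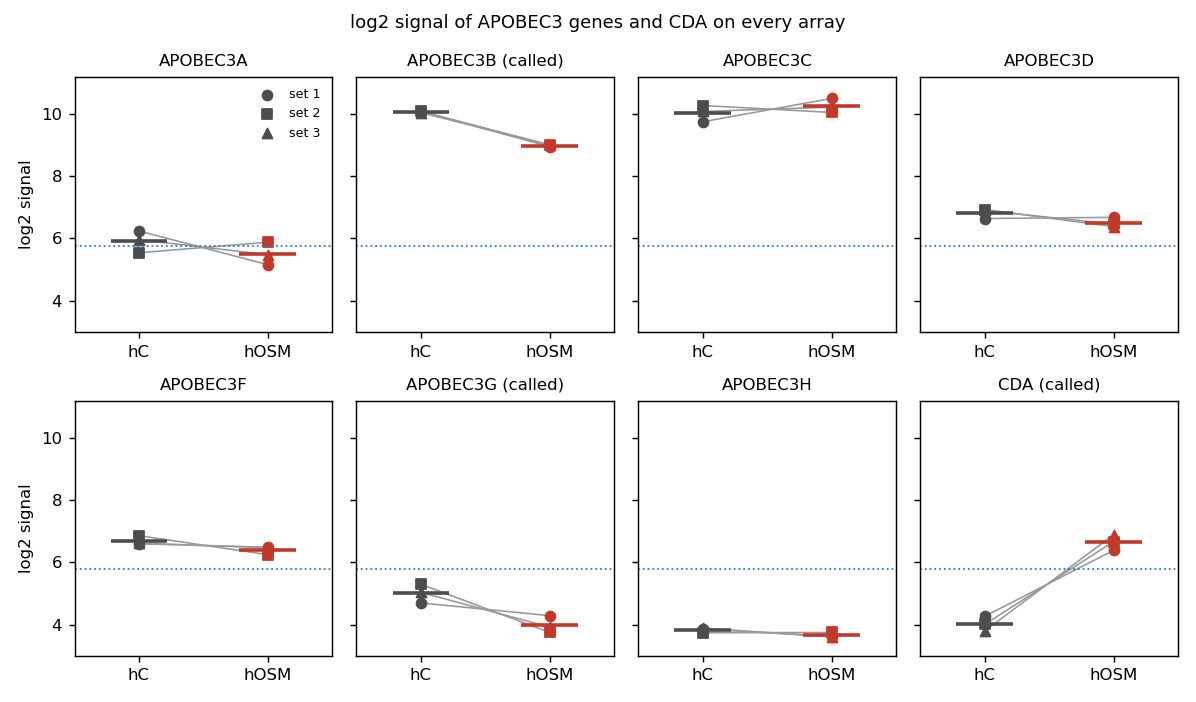
Each panel plots the log2 signal (y axis) of 1 gene on the 6 arrays (MDA-MB-231-hC, hC, in gray and MDA-MB-231-hOSM, hOSM, in red), where marker shapes give the set, thin lines join the arrays of a set, thick bars are means of 3 arrays, and the dotted line is the background guide at 5.77. CDA crosses the guide upward, APOBEC3B falls in parallel in every set, and APOBEC3G and APOBEC3H stay below the guide.

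APOBEC3A, an enzyme with 1 deaminase domain that is found mainly in myeloid cells and is a strong DNA mutator, had a difference between the lines that changed sign from set to set. Its log2 signals were 6.24, 5.54 and 5.96 in MDA-MB-231-hC and 5.16, 5.88 and 5.48 in MDA-MB-231-hOSM, and the lines overlapped. The signal was lower in MDA-MB-231-hOSM by 1.08 in set 1 and higher by 0.34 in set 2, for a log2 fold change of −0.41 (with an SE of 0.26, adjusted p = 0.353 in limma). Its values straddle the background guide, with 2 of 3 MDA-MB-231-hC arrays and 1 of 3 MDA-MB-231-hOSM arrays over it. The 95% confidence interval ran from −1.03 to 0.22 and so holds both a 2-fold decrease and no difference.

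APOBEC3C, a broadly expressed member with 1 deaminase domain and weak antiviral activity, was the sole APOBEC3 gene with a mean above 0 for its log2 fold change. Its log2 signals were 9.75, 10.27 and 10.08 in MDA-MB-231-hC and 10.50, 10.05 and 10.22 in MDA-MB-231-hOSM, all well over the guide. The lines overlapped, and the log2 fold change was 0.22 with an SE of 0.20 and a 95% confidence interval from −0.25 to 0.70 (adjusted p = 0.503 in limma). Set 1 gave a difference of 0.75, set 3 of 0.14 and set 2 of −0.22, and without set 1 the log2 fold change was −0.04. An increase of over 1.62-fold or a decrease to under 0.840 of the control lies outside the interval.

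APOBEC3D and APOBEC3F, antiviral enzymes with a pair of deaminase domains each, had slightly lower means in the OSM line and were not called. APOBEC3D had log2 signals of 6.64, 6.90 and 6.93 in MDA-MB-231-hC and of 6.68, 6.46 and 6.38 in MDA-MB-231-hOSM, with overlap in set 1 (log2 fold change −0.32 with an SE of 0.15, adjusted p = 0.236 in limma). APOBEC3F had 6.60, 6.86 and 6.62 against 6.49, 6.25 and 6.47, without overlap but with a gap of 0.11 (log2 fold change −0.29 with an SE of 0.15, adjusted p = 0.252 in limma). Both lay over the guide on all 6 arrays. Their 95% confidence intervals, −0.69 to 0.06 and −0.65 to 0.07 on the log2 scale, leave out a 2-fold change in either direction. APOBEC3H, an antiviral enzyme that differs in stability between human haplotypes, lay under the guide on every array. Its log2 signals were 3.86, 3.74 and 3.89 in MDA-MB-231-hC and 3.62, 3.75 and 3.61 in MDA-MB-231-hOSM (log2 fold change −0.17 with an SE of 0.13, adjusted p = 0.431 in limma), and the lines overlapped. APOBEC3 genes arose by duplication and share long stretches of sequence. The probe sequences were not used here, so signal shared between members of the family was not tested.

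**Figure D2:**
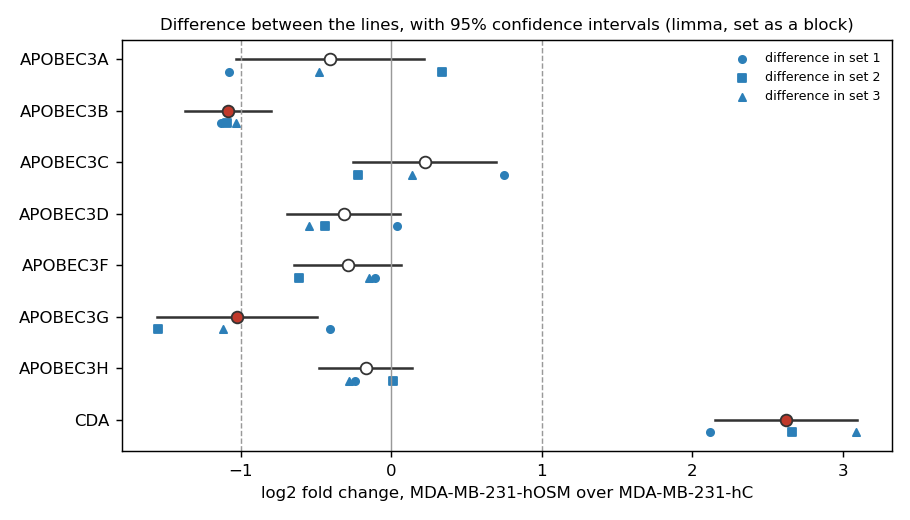
Circles give the log2 fold change of MDA-MB-231-hOSM over MDA-MB-231-hC (x axis) for each gene, filled where called, with 95% confidence intervals from limma as lines and the differences in sets 1, 2 and 3 as small blue markers, and dashed lines mark 2-fold. The 3 differences of APOBEC3B lie between −1.13 and −1.03, while those of APOBEC3A spread from −1.08 to 0.34.

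Across the sets, the 3 called genes and APOBEC3F differed in 1 direction in all 3 sets, and the other 4 did not. The sets did not rank the genes alike. Set 1 held the smallest difference for CDA and APOBEC3G but the largest for APOBEC3A, APOBEC3B and APOBEC3C. The SD of the 3 differences ran from 0.05 for APOBEC3B and 0.16 for APOBEC3H to 0.58 for APOBEC3G and 0.71 for APOBEC3A. In set 1 APOBEC3A (−1.08) and APOBEC3B (−1.13) differed by like amounts, whereas in set 2 APOBEC3A was at 0.34 and APOBEC3B at −1.09.

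The APOBEC3 genes lie in a row on chromosome 22, in the order APOBEC3A, APOBEC3B, APOBEC3C, APOBEC3D, APOBEC3F, APOBEC3G and APOBEC3H, and CDA lies on chromosome 1. Neither called APOBEC3 gene had a called neighbor. APOBEC3B sits between APOBEC3A (−0.41) and APOBEC3C (0.22), and APOBEC3G between APOBEC3F (−0.29) and APOBEC3H (−0.17). Of the 6 nearest measured genes on each side of the cluster, 0 of 12 were called. Their log2 fold changes lay between −0.46 and 0.60, and their limma adjusted p between 0.0664 and 0.966. At an adjusted p under 0.1 without the fold limit, which 19.7% of all transcript clusters met, NPTXR passed among these 12. Around CDA the nearest measured genes on either side, FAM43B (0.24) and DDOST (0.28), were not called. ECE1, an endothelin-converting enzyme and the fifth gene beyond CDA, was 3.02-fold higher (log2 fold change 1.59 with an SE of 0.13, adjusted p = 0.00122 in limma). The other 11 genes around CDA were not called, with CAMK2N1 at 0.78 (adjusted p = 0.0117) closest to the 2-fold limit.

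**Figure D3:**
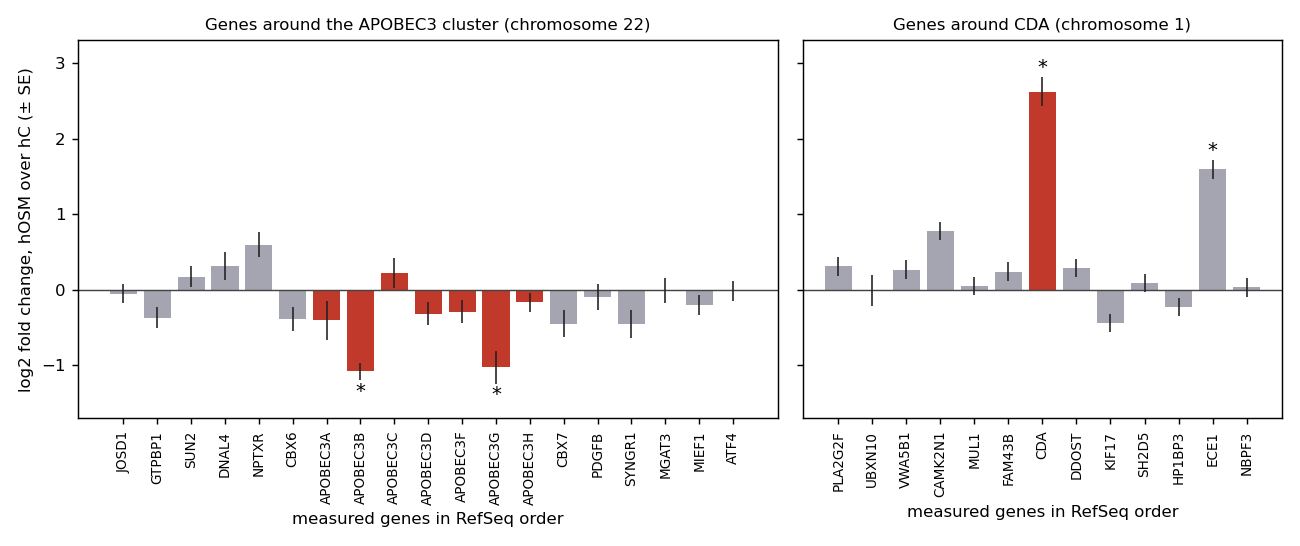
Bars give the log2 fold change of MDA-MB-231-hOSM over MDA-MB-231-hC (y axis, with SE from limma) for the APOBEC3 genes and CDA (red) and the 6 nearest measured genes on each side (gray), in RefSeq order, and asterisks mark called genes. APOBEC3B (−1.08), APOBEC3G (−1.03), CDA (2.62) and ECE1 (1.59) are marked.

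Of 7 other measured cytidine and adenosine deaminases that act on nucleic acids, 1 was called (14.3%, against 4.16% of all transcript clusters). ADARB1, which edits adenosine to inosine in RNA, was 2.72-fold higher (log2 fold change 1.44 with an SE of 0.18, adjusted p = 0.00531 in limma), with differences of 0.99, 1.55 and 1.79. ADAR, the interferon-responsive editor, had a log2 fold change of 0.12 (adjusted p = 0.575). APOBEC1, which edits the mRNA of apolipoprotein B, and APOBEC4 lay under the background guide in both lines and were not called.

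Of 22 measured genes around CDA in pyrimidine nucleoside uptake, salvage and breakdown, 1 was called (4.55%, near the 4.16% of all transcript clusters), and the median log2 fold change was −0.15. DPYD, the rate-limiting enzyme of uracil and thymine breakdown, was 2.19-fold higher (log2 fold change 1.13 with an SE of 0.12, adjusted p = 0.00372 in limma). DCK, which phosphorylates the deoxycytidine that CDA would otherwise deaminate, was at −0.76 (adjusted p = 0.0153), and TK1, which phosphorylates thymidine, at −0.99 (adjusted p = 0.00584), both under the 2-fold limit. TK1 was called lower without set 1 (−1.05) and without set 2 (−1.01), but not without set 3 (−0.92). UPP1, which splits uridine, and DCTD, which deaminates dCMP, were at 0.37 (adjusted p = 0.254) and −0.09 (adjusted p = 0.676). The nucleoside transporters SLC29A1 and SLC29A2 were at −0.17 (adjusted p = 0.434) and −0.86 (adjusted p = 0.0756). Without the fold limit, 6 of the 22 genes had an adjusted p under 0.1 in limma (27.3%, against 19.7% of all transcript clusters). Of these, 3 were higher, DPYD, NT5E (0.58) and TK2 (0.44), and 3 were lower, TK1, DCK and SLC29A2. Of 10 measured genes of pyrimidine and deoxynucleotide synthesis none was called in limma. Without the fold limit, 4 (40%, against 10.4% of all transcript clusters) had an adjusted p under 0.1 with a lower mean. The lowest was TYMS, thymidylate synthase (−0.84, adjusted p = 0.00883).

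Genes for removing uracil from DNA, for the repair of DNA and for keeping uracil out of the nucleotide pool also stayed under the 2-fold limit. Of 16 measured, 0 were called, and the median log2 fold change was −0.35. Without the fold limit, 7 had an adjusted p under 0.1 in limma (43.8%, against 19.7% of all transcript clusters), all with a lower mean in MDA-MB-231-hOSM. They were DUT, which keeps dUTP out of DNA synthesis (−0.92, adjusted p = 0.00620), LIG1 (−0.87), PARP1 (−0.83), UNG, the main uracil glycosylase (−0.76, adjusted p = 0.0320), FEN1 (−0.71), APEX2 (−0.61) and MSH6 (−0.56). The other glycosylases SMUG1, TDG and MBD4 were at 0.04, 0.32 and 0.32, and their adjusted p-values ran from 0.149 to 0.882.

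APOBEC3B is a target of the DREAM complex, a repressor of cell cycle genes, and of B-MYB, the activator that takes over its sites in dividing cells. Of 17 measured genes of these complexes and their E2F partners, 3 were called (17.6%, against 4.16% of all transcript clusters), all lower, and the median was −0.47. Without the fold limit, 13 had an adjusted p under 0.1 in limma (76.5%, against 19.7% of all transcript clusters), 10 lower and 3 higher. MYBL2, which encodes B-MYB, fell by 1.32 (with an SE of 0.18, adjusted p = 0.00860), MYBL1, its relative, by 1.18 (adjusted p = 0.00333) and E2F1 by 1.03 on the log2 scale (adjusted p = 0.00431 from limma). Without set 3, MYBL2 was not called (log2 fold change −1.25, adjusted p = 0.136). The DREAM members RBL2, E2F4 and E2F5 had log2 fold changes of 0.35, 0.78 and 0.41 (adjusted p = 0.145, 0.0201 and 0.0933 in limma). RBL1 went the other way, at −0.72 (adjusted p = 0.0321). LIN9, LIN52 and LIN54 were at −0.47, −0.54 and −0.55, and LIN37 was at 0.30 (adjusted p = 0.201). FOXM1 was at −0.81 (adjusted p = 0.0126). Of 17 G2/M genes driven by B-MYB and FOXM1, none was called, and 13 (76.5%, against 10.4% of all transcript clusters) had an adjusted p under 0.1 with a lower mean in MDA-MB-231-hOSM. Their median was −0.56, and CCNB1, PLK1 and AURKA were at −0.12, −0.30 and −0.14. NEK2, at −0.97, was called lower without set 1 (−1.165). APOBEC3B and most of these cell cycle genes had lower means in the same line. Means were higher for 5 of the 17 complex and partner genes, TFDP2 among them (0.57, adjusted p = 0.0421 in limma). Among the 17 G2/M genes, CENPA alone was higher (0.07). The part of cell division in the level of APOBEC3B was not tested.

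Interferon-stimulated genes, the group to which several APOBEC3 genes belong, had a median log2 fold change of 0.61. Of 33 measured, 10 were called (30.3%, against 4.16% of all transcript clusters), all higher, and 25 had a mean above 0 for the log2 fold change. Among the 8 with a mean below 0 were OAS1 at −0.96 (adjusted p = 0.0525), which was called lower without set 3, IFI27 at −0.56, OAS3 at −0.48 and RIGI at −0.37. MX2, which blocks nuclear entry of HIV-1, was 7.78-fold higher over a background level (adjusted p = 0.000414), IFITM1, which hinders viral fusion, 3.56-fold, IFIT3 3.33-fold and IFIT1 3.06-fold. IFIT1, IFIT3 and OASL were not called without set 2 or without set 3, and IFIT2 was not called whichever set was left out. IRF9, a DNA-binding factor of the interferon response, was 3.02-fold higher (adjusted p = 0.00193), whereas ISG15 (0.08), USP18 (0.13) and BST2 (0.41) were not called. Of 17 other antiviral restriction factors 5 were called (29.4%, against 4.16% of all transcript clusters), all higher. These were MX2, IFITM1, IFITM2, IFITM3 and MX1, which are all among the 10 called interferon-stimulated genes above. TRIM5, SAMHD1 and MOV10 were at −0.20, −0.30 and −0.39. Of 10 factors named as regulators of APOBEC3 genes IRF9, which is also on the interferon-stimulated list, was the 1 called (10%, against 4.16%). STAT3, which OSM activates, was at 0.82 (adjusted p = 0.0196), and RELB and NFKB2, the pair of the noncanonical NF-κB pathway, were at −0.22 and 0.24.

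**Figure D4:**
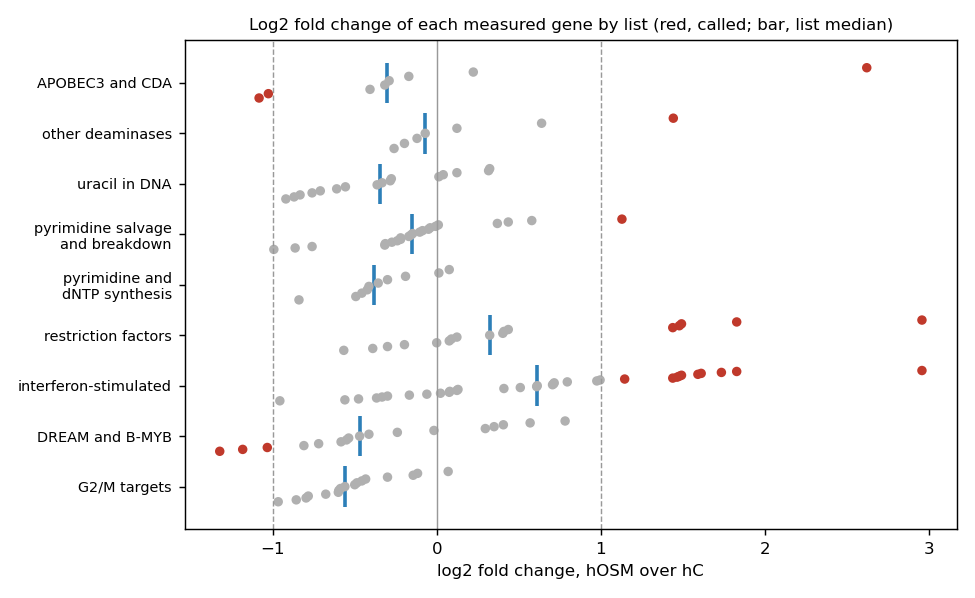
Each point is 1 measured gene, placed by its log2 fold change of MDA-MB-231-hOSM over MDA-MB-231-hC (x axis) in the row of its list, with called genes in red, the median of the list as a blue bar and 2-fold as dashed lines. Medians run from −0.56 for the G2/M targets to 0.61 for the interferon-stimulated genes, and that of the APOBEC3 genes and CDA is −0.30.

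By the distance between 6 log2 values, each gene centered on its own mean, the genes most like CDA were NRIP1 (distance 0.09), SLFN5 (0.27) and CACNA2D1 (0.30), with log2 fold changes of 2.65, 2.52 and 2.60. Those most like APOBEC3B were SSX2IP (0.06), ZFAND4 (0.07) and INPP5F (0.08), and those most like APOBEC3G were PDGFRL (0.13), TACC2 (0.14) and OLFML1 (0.16). With 6 arrays such likeness is loose, since 3312 genes lay within a distance of 1 from APOBEC3B, 2378 from APOBEC3G and 101 from CDA.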

How the data were processed

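The deposited values are log2 signals that the authors made with RMA (background correction, normalization between arrays, 1 summary per transcript cluster) in the Transcriptome Analysis Console 4.0, per the submitters' processing notes. Library version and genome build: not given in the sources used here. No array coordinates are therefore printed. The deposited values were used unchanged. The platform annotation named 1 gene for 17709 transcript clusters and none for 3739. Where 20 genes had several, the one with the highest mean was kept.

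Differences were fitted over all transcript clusters with limma 3.58.1 (R 4.3.3; lmFit, eBayes) and Benjamini-Hochberg adjustment. The set entered as a block, since the labels give both lines the same set numbers and deviations from the line means mirror each other within a set (r = −0.993, −0.995 and −0.992). This leaves 2 residual degrees of freedom. Leaving sets out for genes of the lists was added after seeing the data. Protein sequences were not used here. The script was tested on simulated data.

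The members and lists were chosen with earlier results of these data known. Named are all 8 members, up to 4 called genes per list with the largest change, called neighbors, the 3 most similar genes per called member, OSM and OSMR. Other names were chosen after their values were seen. Alternatives were a fit without the block, other normalizations, filters, moderation, thresholds and averages, and each set left out.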

Additional observations from a re-analysis of the deposited data

How the results depend on the processing

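Over all transcript clusters 893 were called, 899 without the replicate block, and 4217 with no fold limit, where fewer conditions are set. Of the 8 genes 3 were called in every full-data setting except after leaving out the 7149 dimmest transcript clusters, which drops APOBEC3G and APOBEC3H from the fit, and the fit without the block changed no member's call. Without the block APOBEC3D, APOBEC3F and APOBEC3H had adjusted p-values of 0.0692, 0.0665 and 0.0985, under 0.1, but stayed under 2-fold. With 1 set left out in turn, APOBEC3C ranged from −0.04, a reversed sign, to 0.445, and APOBEC3G from −1.335 to −0.765, no longer called without set 2 or set 3, for which the cause was not tested. In the same way APOBEC3A ranged from −0.78 to −0.07, APOBEC3D from −0.495 to −0.20, APOBEC3F from −0.38 to −0.13 and APOBEC3H from −0.26 to −0.115, none of them called. Members other than APOBEC3C kept their direction, and members other than APOBEC3G kept their call. No member had several transcript clusters, so averaging them was not run. Background limits CDA in MDA-MB-231-hC and APOBEC3G and APOBEC3H in both lines.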
